A study of Mus musculus with 8 samples.

Results

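The 10 genes described here are those by which a Leydig cell takes up cholesterol, turns it into testosterone and answers luteinizing hormone (LH): *Star*, *Cyp11a1*, *Cyp17a1*, *Hsd3b1*, *Hsd3b6*, *Hsd17b3*, *Lhcgr*, *Insl3*, *Srd5a1* and *Scarb1*. They were chosen by name from the 54532 genes of the deposited expression table, with no measured value in the rule. Earlier results of these data were known when they were chosen. RNA had been sequenced from whole testes of 8 mice, with 1 library per mouse. The control group was 4 synchronized *Spdya* fl/fl mice (*Sync-Spdya* fl/fl), and the other group was 4 synchronized conditional knockout mice (*Sync-Spdya* cKO), which carry the same floxed *Spdya* alleles together with *Ddx4-Cre*ERT2. Both lines were on the C57BL/6J background. All 8 mice had received an inhibitor of retinoic acid (RA) synthesis and then RA, which aligns the germ cells in meiosis, as well as tamoxifen at RA7.5 and RA8.5, and the testes were collected at RA11.5, a mid-late pachytene time in juvenile life. Because the *Ddx4* promoter drives Cre in germ cells, the Leydig cells themselves are not the cells in which *Spdya* is deleted, and they carry the floxed alleles in both groups. The controls have no Cre, so the presence of Cre and the deletion cannot be told apart. The series was designed to ask how loss of *Spdya* affects gene activity in pachytene spermatocytes, and the same libraries also show the levels of the Leydig genes around those cells.

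Leydig cells lie between the seminiferous tubules. LH binds its receptor on their surface and raises cyclic AMP, which moves cholesterol into mitochondria and induces the steroidogenic enzymes. In the mitochondria the side chain of cholesterol is removed to give pregnenolone, which enzymes of the endoplasmic reticulum convert through progesterone and androstenedione to testosterone. In the mouse, a fetal population of Leydig cells is joined after birth by adult Leydig cells, which pass through progenitor and immature stages. The testes here come from the time when that second population is forming.

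Both 3β-hydroxysteroid dehydrogenase genes of the set are near copies of each other, so their sequences are given before their values. *Hsd3b1* and *Hsd3b6* each have a coding sequence of 1122 bases in GENCODE vM21 (GRCm38), and 1010 of these bases are identical (90.0%). Coding positions 313 to 462 are shown from both genes, 5′ to 3′ on the coding strand, because the values of the pair rest on telling such stretches apart. Capitals mark the 14 of 150 bases that differ. The stretch lies in the last exon of each gene, exon 5 of 5 in *Hsd3b1* (chr3:98853212-98853361, minus strand) and exon 4 of 4 in *Hsd3b6* (chr3:98806520-98806669, minus strand).
Hsd3b1: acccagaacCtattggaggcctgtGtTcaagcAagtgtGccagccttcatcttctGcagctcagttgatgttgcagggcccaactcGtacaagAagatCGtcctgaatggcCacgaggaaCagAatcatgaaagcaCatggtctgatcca
Hsd3b6: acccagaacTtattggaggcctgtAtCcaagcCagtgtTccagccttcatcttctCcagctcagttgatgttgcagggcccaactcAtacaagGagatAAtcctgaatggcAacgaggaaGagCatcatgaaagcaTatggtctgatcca
No stretch of 75 bases or longer was the same in the *Hsd3b1* and *Hsd3b6* transcripts, and 38 of the 1851 different 50-base stretches of *Hsd3b1* were also in *Hsd3b6*. The family members *Hsd3b2* and *Hsd3b3*, each 89.3% identical to *Hsd3b1* over the coding sequence, were at 0 to 0.0638 and 0 to 0.0119 FPKM in the 8 libraries, where FPKM is the number of sequenced fragments of a gene scaled by its length and by the size of the library. How the authors' counting treated reads that fit several family members is not given in the sources used here.

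The same pair differs upstream. RefSeq start sites on GRCm38.p6 were given for 7 of the 10 genes, and in 6 of them a start lay within 100 bases of the start in the deposited table. *Star*, *Cyp17a1* and *Scarb1* had no entry. In the 250 bases before those 6 starts, GATAA, the core of the GATA factor motif, was found on either strand in *Hsd3b1* and *Hsd3b6* only, against 22.6% of 32851 promoters of the same length. The 150 bases next to the start are shown for both genes on the sense strand, with the match in capitals. In *Hsd3b1* it is on the opposite strand, so the letters read TTATC.
Hsd3b1 promoter, chr3:98859795-98859944, minus strand: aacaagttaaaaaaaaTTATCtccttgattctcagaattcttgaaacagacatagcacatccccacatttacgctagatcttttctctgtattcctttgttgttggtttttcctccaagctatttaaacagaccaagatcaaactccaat
Hsd3b6 promoter, chr3:98814444-98814593, minus strand: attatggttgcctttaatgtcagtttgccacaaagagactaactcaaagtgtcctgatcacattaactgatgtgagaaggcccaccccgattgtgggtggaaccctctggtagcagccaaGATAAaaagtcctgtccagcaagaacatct
AAGGTCA, a form of the NR5A1 motif, and TATAAA, the TATA box, were each found in 0 of the 6 windows, against 4.08% and 12.4% of all promoters, either strand counted. These matches describe the reference sequence and say nothing of factor binding in these testes.

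All 10 genes were detected in all 8 libraries, mostly at modest levels. By mean FPKM over the libraries, *Scarb1* and *Hsd3b1* stood at the 82.9th and 81.7th percentiles of protein-coding genes, followed by *Star* (68.2), *Hsd17b3* (59.2), *Srd5a1* (56.7), *Lhcgr* (53.8), *Hsd3b6* (49.0), *Cyp11a1* (44.1), *Cyp17a1* (40.4) and *Insl3* (39.8). The FPKM ranges of each gene and the next in this order overlapped, so the order is not resolved between neighbours. The libraries held 13978342 to 19583091 fragments on genes, which left 1133 to 2882 fragments for *Scarb1* but only 12 to 34 for *Cyp17a1* and 1 to 14 for *Insl3*. *Spdya* itself was at 19.7 to 23.8 FPKM in controls and 17.7 to 30.5 FPKM in cKO. The FPKM covers the whole gene and so includes exons outside the deleted exon 2, and it does not check the genotype. Control 1 stood apart from the other libraries in its share of mitochondrial fragments, 0.464% against 2.20% to 3.74%.

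In the comparison of the groups, 9 of the 10 genes had a higher fitted level in cKO and *Hsd17b3* a lower one, but none reached an adjusted p below 0.05. Among these 9, *Srd5a1* and *Insl3* changed sign when some single libraries were left out, and *Insl3* had nearly equal mean FPKM in the groups. Differences are cKO minus control on the log2(FPKM + 0.1) scale, from limma fitted over protein-coding genes whose mean exceeded 1 FPKM in the controls and in the cKO. This filter kept 7 of the 10 genes. *Cyp11a1*, *Cyp17a1* and *Insl3* fell below it and were taken from a wider fit of all 25931 genes with a mean above 0.1 FPKM. The study's thresholds, which it applied to DESeq2, ask for a 2-fold change besides an adjusted p below 0.05. In limma they were met by 0 of 7 genes, beside 0.0165% (2) of the 12141 genes tested. That is fewer genes than the study reports from its own test, so these calls are not the study's. At an unadjusted p below 0.05, 4 of the 7 passed, beside 10.9% of all genes, and all 4 were higher in cKO, beside 5.89%. Of genes higher at that level there were 2 without cKO 2, 1 (*Scarb1*) without control 2 and 0 without control 1, control 3 or cKO 4, and without control 1 the 1 gene that passed was *Hsd17b3*, which was lower. The log2 fold change was above 0 in 6 of 7, beside 52% of all genes, and the median was 0.39, beside 0.01 over all genes. The median of the markers tested, described below, was 0.60 for macrophages, 0.45 for endothelium, 0.42 for peritubular myoid cells and 0.87 for blood. It was 0.08 for Sertoli, 0.12 for spermatogonial and -0.18 for spermatocyte markers, and -0.22 for the 1 adrenal marker tested. The wider fit gave an adjusted p below 0.05 for 0 of the 10 genes, beside 0.0309%, and an unadjusted p below 0.05 for 3, beside 9.3%. These 3 were all higher, beside 4.27%, and 9 of the 10 log2 fold changes were above 0, beside 49.5%. Every cKO library was above every control in 1 of the 10 genes, beside 2.74% of the wider fit, and below in 0 of the 10, beside 2.59% of the 12141 genes. These shares are descriptions of a list chosen by name with earlier results of these data known, and they are not a test of the list. In RNA of a whole testis, more Leydig cells and more RNA per Leydig cell cannot be told apart. Nor can either be told from less RNA of other cells, or from RNA of the same genes in other cells. From single-cell sequencing the paper reports a lower percentage of spermatocytes in synchronized cKO testes. The part of this in the levels of the 10 genes was not tested.

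**Figure D1:**
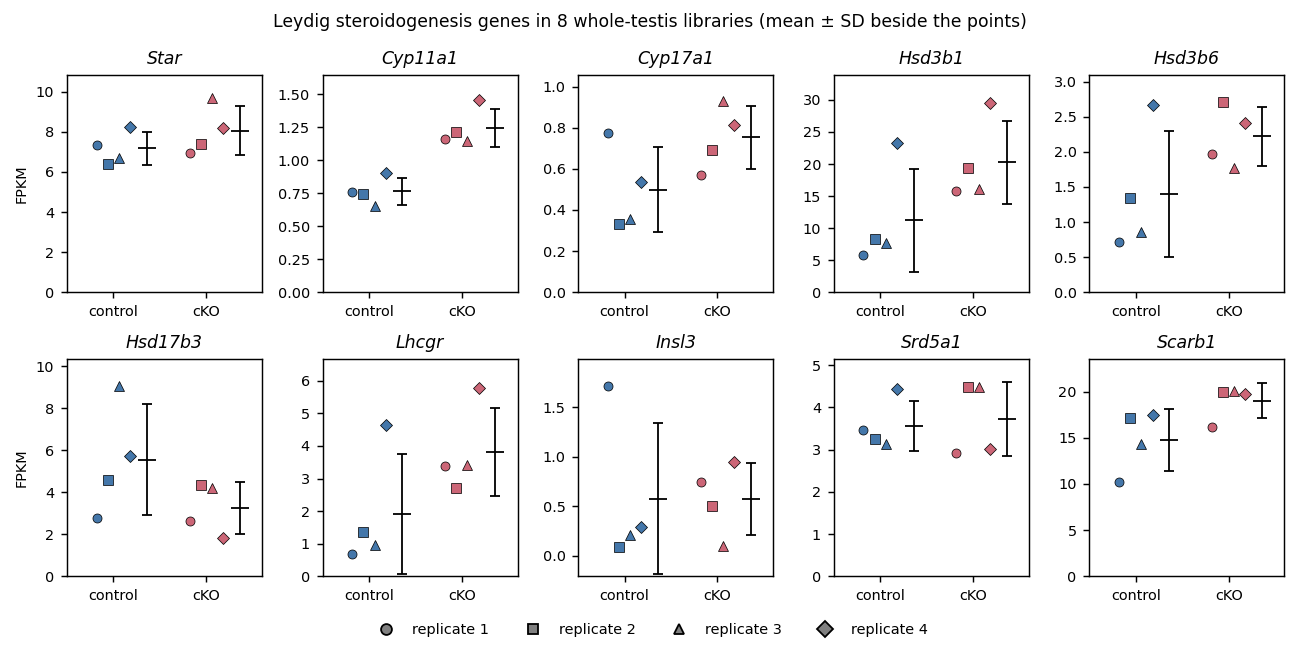
FPKM of the 10 genes in the 4 control and 4 cKO libraries, 1 panel per gene and each with its own axis. Points are libraries with a symbol per replicate number, and the bar beside them is the mean ± SD. The groups are apart in *Cyp11a1* alone, and control 4 lies far above the other controls in *Hsd3b1* and *Lhcgr*.

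*Lhcgr* (ENSMUSG00000024107, chr17:88741549-88791976, minus strand), the receptor for LH, had the highest fold change of the 10. It was at 0.687, 1.36, 0.952 and 4.64 FPKM in controls 1 to 4 and at 3.37, 2.70, 3.41 and 5.79 FPKM in cKO 1 to 4. Controls 1 to 3 were lower than every cKO library, while control 4 was higher than 3 of the 4, so the groups overlapped. The means were 1.91 ± 1.84 and 3.82 ± 1.35 FPKM (SD, n = 4 each), a ratio of 2.00. The log2 fold change was 1.28 (95% interval 0.19 to 2.37; limma p = 0.0253, adjusted p = 0.396), and the exact permutation test over the libraries, two-sided, gave p = 0.114. Without control 4 the log2 fold change was 1.82 (limma adjusted p = 0.0730), and without control 1 it was 0.96 (adjusted p = 0.347).

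*Scarb1* (ENSMUSG00000037936, chr5:125277087-125341094, minus strand) encodes SR-BI, which takes up cholesterol esters from lipoproteins. Its control levels were 10.2, 17.1, 14.3 and 17.5 FPKM and its cKO levels 16.2, 19.9, 20.1 and 19.8 FPKM. In cKO, 3 libraries were above the highest control, and cKO 1 lay within the controls. The means of 14.8 ± 3.39 and 19.0 ± 1.89 FPKM gave a log2 fold change of 0.39 (0.01 to 0.77; limma p = 0.0465, adjusted p = 0.451), with an exact permutation p of 0.0857. Without control 1 the log2 fold change was 0.22.

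*Star* (ENSMUSG00000031574, chr8:25806555-25815982, plus strand), whose product moves cholesterol to the inner mitochondrial membrane and is the acute target of LH, varied by 1.52 times between its lowest and highest libraries. It was at 7.33, 6.38, 6.70 and 8.26 FPKM in controls and at 6.92, 7.37, 9.70 and 8.18 FPKM in cKO, and 3 of the cKO values lay within the control range. The log2 fold change was 0.16 (-0.14 to 0.45; limma adjusted p = 0.723).

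*Cyp11a1* (ENSMUSG00000032323, chr9:58006411-58027023, plus strand), the side-chain cleavage enzyme that makes pregnenolone, was the only gene of the 10 in which the groups did not overlap. Its levels were 0.762, 0.746, 0.653 and 0.902 FPKM in controls and 1.16, 1.21, 1.15 and 1.46 FPKM in cKO, from 48 to 119 fragments per library. All 4 cKO libraries were above all 4 controls. The means were 0.766 ± 0.103 and 1.24 ± 0.145 FPKM (SD, n = 4 each), a ratio of 1.63. The log2 fold change was 0.64 (0.22 to 1.06; limma p = 0.00738, adjusted p = 0.375), and the exact permutation p was 0.0286, the smallest that 4 libraries against 4 allow, and 0.204 when adjusted over the 10 genes, a set chosen with earlier results known. In the annotation 145 of the 4804 exon bases of *Cyp11a1* (3.02%) are shared with the lincRNA *Gm17322* on the same strand.

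*Hsd3b1* (ENSMUSG00000027871, chr3:98852194-98859794, minus strand), which makes progesterone from pregnenolone, had 5.76, 8.27, 7.66 and 23.2 FPKM in controls and 15.8, 19.4, 16.1 and 29.6 FPKM in cKO. Controls 1 to 3 were all below the lowest cKO library, and control 4 was above 3 of the 4. The means were 11.2 ± 8.07 and 20.2 ± 6.42 FPKM (SD, n = 4 each), 1.80 times as high in cKO, and the log2 fold change was 1.02 (0.17 to 1.87; limma p = 0.0240, adjusted p = 0.390), with an exact permutation p of 0.114. Leaving out control 4 moved the log2 fold change to 1.44 (limma adjusted p = 0.0719) and leaving out control 1 moved it to 0.78 (adjusted p = 0.339).

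*Hsd3b6* (ENSMUSG00000027869, chr3:98805504-98814443, minus strand), the form that marks adult Leydig cells, was lower throughout and spread in the same way. Controls were at 0.720, 1.35, 0.852 and 2.68 FPKM and cKO at 1.97, 2.71, 1.78 and 2.42 FPKM, with control 4 again among the cKO values. The log2 fold change was 0.78 (0.01 to 1.56; limma p = 0.0471, adjusted p = 0.451), with an exact permutation p of 0.143. Within a library, *Hsd3b6* was 0.111 to 0.163 times the level of *Hsd3b1* in controls and 0.0818 to 0.139 times in cKO. This ratio overlapped between the groups, and its log2 difference of -0.18 gave an exact permutation p of 0.4 (adjusted over the 7 ratios, 0.6).

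*Cyp17a1* (ENSMUSG00000003555, chr19:46667165-46672974, minus strand), whose product makes androgen from progesterone, was at 0.331 to 0.775 FPKM in controls and 0.571 to 0.931 FPKM in cKO. Control 1 was higher than 2 of the cKO libraries. The log2 fold change of 0.55 (-0.11 to 1.21; limma adjusted p = 0.603) had an interval that included 0, and it rested on 12 to 34 fragments per library. It was 0.75 without control 1 (limma adjusted p = 0.346) and 0.83 with array weights (limma adjusted p = 0.221).

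*Hsd17b3* (ENSMUSG00000033122, chr13:64058266-64089230, minus strand), which turns androstenedione into testosterone, was the one gene with a lower fitted level in cKO. It was at 2.80, 4.60, 9.06 and 5.75 FPKM in controls and at 2.63, 4.37, 4.22 and 1.82 FPKM in cKO. Controls 2 to 4 were above every cKO library, and control 1 was not. The means of 5.55 ± 2.64 and 3.26 ± 1.24 FPKM gave a log2 fold change of -0.71 (-1.52 to 0.10; limma p = 0.0782, adjusted p = 0.536), with an exact permutation p of 0.143. Without control 3 the log2 fold change was -0.44, and without control 1 it was -0.99.

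*Srd5a1* (ENSMUSG00000021594, chr13:69573449-69611442, minus strand) encodes a 5α-reductase, an enzyme that immature Leydig cells use to make 5α-reduced androgens. Its levels were 3.46, 3.24, 3.12 and 4.43 FPKM in controls and 2.93, 4.48, 4.48 and 3.02 FPKM in cKO. The cKO libraries held both the highest and the lowest values, and the log2 fold change was 0.05 (-0.36 to 0.46; limma adjusted p = 0.950). *Gm17108*, on the same strand, shares 476 of the 2909 exon bases of *Srd5a1* (16.4%).

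*Insl3* (ENSMUSG00000079019, chr8:71689214-71690575, plus strand), a peptide hormone of Leydig cells, rested on 1 to 14 fragments per library. It was at 1.71, 0.0885, 0.205 and 0.294 FPKM in controls and at 0.745, 0.503, 0.0952 and 0.945 FPKM in cKO. The means were nearly equal, 0.576 ± 0.764 FPKM in controls and 0.572 ± 0.366 FPKM in cKO (SD). Control 1 alone held the highest value of the 8, and the log2 fold change of 0.33 had an interval of -1.37 to 2.04 (limma adjusted p = 0.921). Of its 623 exon bases, 404 (64.8%) are also exon bases of *Jak3* on the same strand, and *Jak3* was at 0.610 to 1.41 FPKM, so fragments of the pair may not be told apart.

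**Figure D2:**
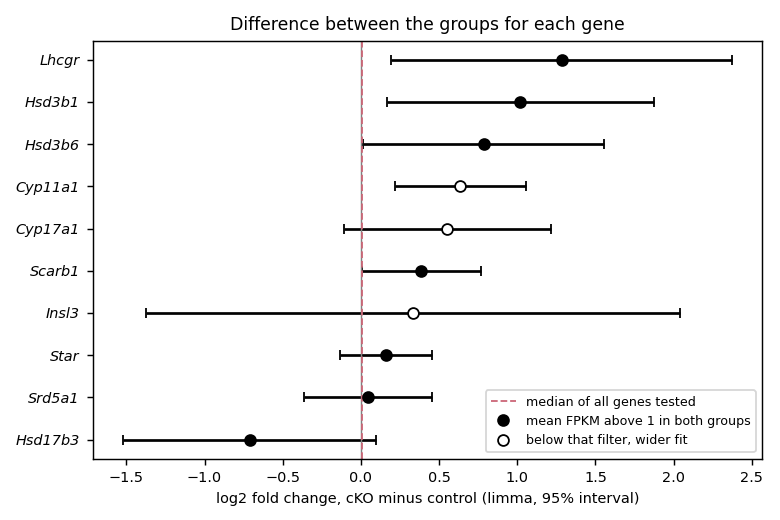
Log2 fold change of each gene, cKO minus control, with its 95% interval from limma, ordered by size. Filled points are from the fit of genes above 1 FPKM in both groups and open points from the wider fit. The intervals of *Lhcgr*, *Hsd3b1*, *Hsd3b6*, *Cyp11a1* and *Scarb1* lie above 0 before adjustment, and those of the other 5 genes include it.

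Some libraries stood high or low in several of the genes. Control 4 was the highest control in 7 of the 10 genes, while control 1 was the lowest control in 5. Among cKO, cKO 1 was the lowest in 5 of the 10. Since the genes share libraries, these counts are a description and not independent evidence.

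Ratios of FPKM within a library compare the 10 genes with each other. RNA of the same genes in other cells would enter these ratios too, and its part was not tested. Of the 7 ratios tested, *Star* to *Cyp11a1* was the only one in which the groups did not overlap. *Star* was 9.61, 8.55, 10.3 and 9.16 times *Cyp11a1* in controls and 5.97, 6.08, 8.45 and 5.60 times in cKO. All 4 cKO ratios were below the lowest control, cKO 3 by the smallest margin. The log2 difference was -0.54 and the exact permutation p was 0.0286, the smallest possible with 4 against 4, or 0.2 when adjusted over the 7 ratios. With 0.1 FPKM added to both genes the log2 difference was -0.48 (exact permutation p = 0.0571, adjusted p = 0.4). *Srd5a1* to *Hsd17b3* was 1.24, 0.705, 0.345 and 0.770 in controls and 1.11, 1.03, 1.06 and 1.66 in cKO. Here control 1 lay among the cKO libraries, and the log2 difference was 0.78 (exact permutation p = 0.114, adjusted p = 0.4). It was 0.44 without control 3 and 1.06 without control 1 (exact permutation adjusted p = 0.68 and 0.2). The ratios *Lhcgr* to *Cyp11a1* (log2 difference 0.66), *Scarb1* to *Star* (0.23), *Cyp17a1* to *Cyp11a1* (-0.05) and *Insl3* to *Cyp11a1* (-0.23) overlapped between the groups, with adjusted p-values of 0.6, 0.6, 0.886 and 0.886 from the exact permutation test. Leaving out control 1 moved *Lhcgr* to *Cyp11a1* to 0.31 and *Scarb1* to *Star* to 0.05, leaving out control 4 moved *Lhcgr* to *Cyp11a1* to 1.14 (exact permutation adjusted p = 0.2), and leaving out control 2 moved *Scarb1* to *Star* to 0.36. None of the 7 passed an adjusted p of 0.05.

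A further 3 ratios were chosen after the values had been seen and are given without adjustment. *Hsd17b3* was 0.486, 0.556, 1.18 and 0.247 times *Hsd3b1* in controls and 0.166, 0.225, 0.261 and 0.0616 times in cKO. Control 4 was lower than cKO 3, and the other controls were above every cKO library. The log2 difference was -1.76 (exact permutation p = 0.0571), and for *Hsd17b3* to *Cyp11a1* it was -1.43 (exact permutation p = 0.0571). *Lhcgr* to *Hsd3b1* ranged from 0.119 to 0.200 in controls and from 0.139 to 0.213 in cKO (log2 difference 0.33, exact permutation p = 0.2), a narrower span than either gene had alone.

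**Figure D3:**
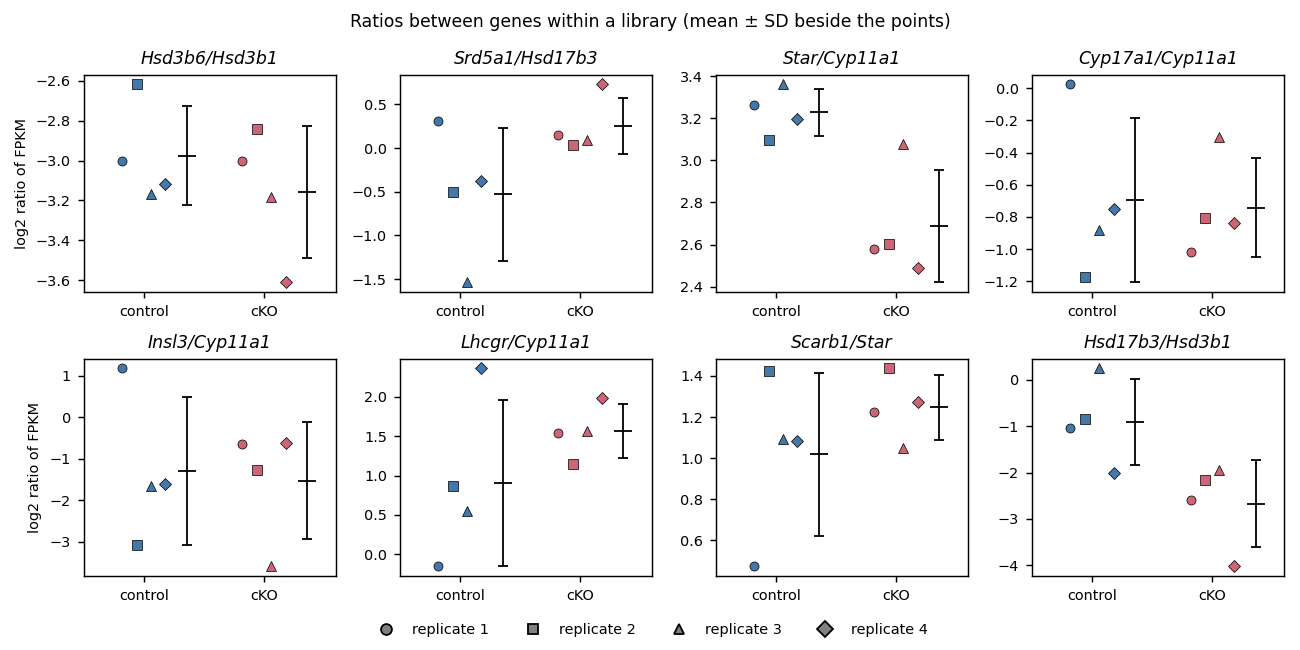
Log2 of the ratio of FPKM between pairs of genes in each library, for the 7 tested ratios and, last, *Hsd17b3* to *Hsd3b1*, which was chosen after the values were seen. Points are libraries and the bar beside them is the mean ± SD. The *Star* to *Cyp11a1* panel is the one in which the groups are apart.

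The other genes of the pathway were read from 4 lists, of which no gene had an adjusted p below 0.05 in limma. Among 26 steroid enzymes and their partners, 15 were tested, and at an unadjusted p below 0.05 4 were higher and 1 lower in cKO, beside 5.89% higher and 5% lower of all genes tested, with a median log2 fold change of 0.15. *Rdh10*, a retinol dehydrogenase, was at 3.50 to 5.26 FPKM in controls and 2.74 to 3.68 FPKM in cKO, a log2 fold change of -0.48 (limma adjusted p = 0.324). *Hsd17b12* (0.38) and *Hsd17b11* (0.30), members of the 17β-hydroxysteroid dehydrogenase family, had limma adjusted p-values of 0.397 and 0.406. The most abundant genes of the list, the peroxisomal enzyme *Hsd17b4* and the ferredoxin reductase *Fdxr*, which passes electrons towards CYP11A1, had means of 36.4 and 34.9 FPKM and of 28.6 and 32.0 FPKM in control and cKO. *Akr1c18* and *Sult1e1* were listed at 0 in every library.

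Among 21 genes of LH signalling and its regulators, 19 were tested, 1 was higher and 2 were lower at an unadjusted p below 0.05 (all genes, 5.89% and 5%), and the median log2 fold change was 0.04. *Nr5a1*, the nuclear receptor SF-1 that acts on most steroidogenic genes and is also present in Sertoli cells, was at 21.4, 22.7, 19.4 and 19.8 FPKM in controls and at 23.0, 25.8, 26.4 and 25.4 FPKM in cKO. Every cKO library was above every control, as in 3.64% of the genes tested, and the log2 fold change was 0.27 (0.06 to 0.48; limma adjusted p = 0.348). *Nr0b1*, which encodes DAX-1, a repressor of SF-1 activity, had a log2 fold change of -0.36 (limma adjusted p = 0.444). The phosphodiesterase *Pde8a* had -0.31 (limma adjusted p = 0.458). The most abundant genes were the protein kinase A subunits *Prkar1a*, with means of 99.9 and 86.8 FPKM in control and cKO, and *Prkaca*, with 43.5 and 43.6 FPKM.

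Among 20 genes of Leydig differentiation, 13 were tested and 3 were higher and 0 lower at an unadjusted p below 0.05 (all genes, 5.89% and 5%), with a median log2 fold change of 0.41. *Ptgds*, a prostaglandin D synthase found in adult Leydig cells, had the smallest p of the 4 lists. It was at 1.06, 1.84, 1.51 and 0.555 FPKM in controls and at 3.32, 3.38, 4.14 and 3.64 FPKM in cKO. Every cKO library was above every control, and the log2 fold change was 1.58 (0.92 to 2.24; limma adjusted p = 0.127). *Igfbp3* (0.80) and *Vcam1* (0.82) had limma adjusted p-values of 0.305 and 0.427. The most abundant genes of the list were *Aldh1a1*, with means of 108 and 125 FPKM in control and cKO, and *Scp2*, with 13.3 and 14.0 FPKM. Among 16 genes of cholesterol supply, all tested, 2 were higher and 0 lower at that level, beside the same shares of all genes, with a median of 0.07. *Npc2*, a lysosomal cholesterol carrier, was at 14.9 to 16.7 FPKM in controls and 17.9 to 21.5 FPKM in cKO, without overlap (log2 fold change 0.32, limma adjusted p = 0.280). *Insig1* (0.21) and *Stard4* (-0.34) had limma adjusted p-values of 0.458 and 0.523. The most abundant, *Hmgcs1* and *Abca1*, had ranges of 28.6 to 42.5 and 21.5 to 27.0 FPKM in controls and of 29.5 to 32.5 and 20.1 to 29.2 FPKM in cKO.

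Markers of other cells of the testis were summed in each library to set beside the 10 genes. A sum of FPKM rests mostly on the most abundant genes of its list. *Acta2* of the myoid list had means of 49.5 and 72.8 FPKM in control and cKO, and *Aard* of the Sertoli list 746 and 695 FPKM. The summed level of 7 macrophage markers was 14.6 to 26.0 FPKM in controls and 28.3 to 35.7 FPKM in cKO, without overlap, and 4 of the 6 tested were higher at an unadjusted limma p below 0.05, beside 5.89% of all genes tested, the share against which the counts of the next lists also stand. The 6 endothelial markers summed to 9.59 to 15.4 FPKM in controls and to 15.4 to 19.7 FPKM in cKO, with 2 of 6 higher at that level. The 6 peritubular myoid markers summed to 45.6 to 76.6 FPKM and 75.4 to 105 FPKM, with 1 of 4 higher, *Acta2*, and the 5 blood markers to 10.8 to 39.8 FPKM and 22.0 to 46.7 FPKM, with 1 of 3 higher. In the endothelial, myoid and blood sums the groups overlapped. The part of these cells in the levels of the 10 genes was not tested.

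**Figure D4:**
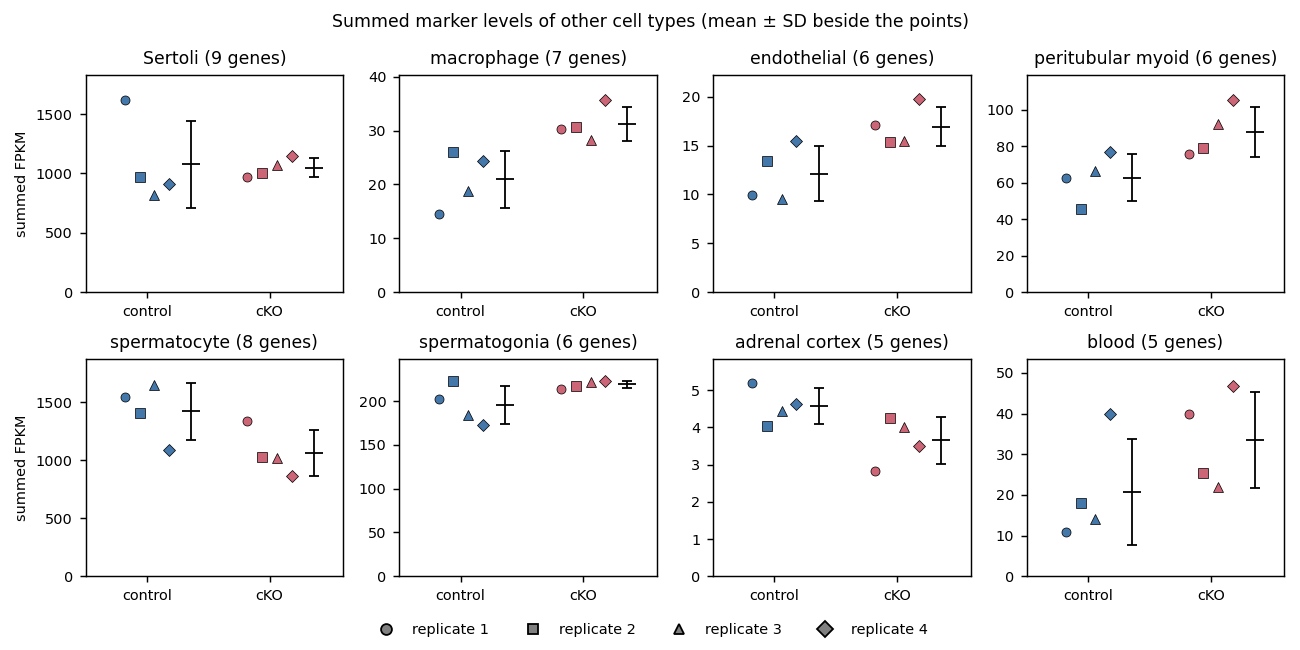
Summed FPKM of the marker genes of 8 other cell types in each control and cKO library, with the number of genes summed in each title and each panel with its own axis. Points are libraries and the bar beside them is the mean ± SD. The macrophage sums are higher in all 4 cKO libraries than in any control.

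Markers of cells inside the tubules overlapped between the groups in their sums. The 9 Sertoli markers summed to 816 to 1621 FPKM in controls and to 971 to 1149 FPKM in cKO, with control 1 the highest and 0 of 9 passing an unadjusted p below 0.05 in limma. The 8 spermatocyte markers in the table summed to 1085 to 1647 FPKM and 860 to 1335 FPKM, with 2 of 7 lower, beside 5% of all genes tested. The marker below the filter, *Hist1h1t*, had higher means in cKO, 0.667 FPKM against 0.279 FPKM in controls. Its log2 fold change in the wider fit was 0.96 (limma adjusted p = 0.418). The 6 spermatogonial markers summed to 173 to 223 FPKM and 214 to 223 FPKM, with 1 of 6 lower, beside the same 5%. Of the markers of the adrenal cortex, which shares the early steps of steroid synthesis, *Cyp21a1* was at 0.0277 to 0.169 FPKM and *Mc2r* was listed at 0 in 7 libraries, and the 5 genes summed to 4.03 to 5.20 FPKM in controls and 2.83 to 4.26 FPKM in cKO.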

How the data were processed

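RNA-seq of whole testis was used from 8 mice, 4 controls and 4 *Sync-Spdya* cKO, grouped by the genotype labels, with each library counted as 1 mouse. The authors deposited FPKM values made by the sequencing company's software from paired-end libraries. The builds GRCm38 and mm10 are named in the submitters' processing notes, and the aligner, the counter and the use of strand are not given in the sources used here. The authors' own differential expression used DESeq2. It was not repeated here, and limma was fitted on the deposited FPKM instead. FPKM multiplied by gene length gave whole fragments for 100% of values above 0, to within 0.02 of a fragment. At the depths of the report, genes with few fragments have wide counting error.

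The 10 genes and all lists were chosen with earlier results of these data known. The test was limma 3.58.1 in R 4.3.3 (lmFit, eBayes with trend) on log2(FPKM + 0.1), a scale that understates the fold change of low genes, with Benjamini-Hochberg adjustment over all genes of the fit. Exact permutation tests used the 70 assignments of 8 libraries, two-sided. The procedure was also run on simulated fragments, which had less spread than several of the 10 genes. In controls the SD was 71.9% of the mean for *Hsd3b1*, 63.8% for *Hsd3b6* and 96.3% for *Lhcgr*. That run therefore says nothing of how the procedure does for these genes. Alternatives were other pseudocounts and filters, centring, TPM, array weights, voom on the recovered fragments, eBayes with no trend, a block for the replicate number and each library left out. From each pathway list the text names the 3 genes with the smallest p and the 2 with the highest mean, and from each marker list the 2 with the highest mean. *Nr5a1* and *Ptgds* fall under that rule, while *Hsd3b2*, *Hsd3b3*, *Jak3*, *Gm17322*, *Gm17108*, *Akr1c18*, *Sult1e1*, *Hist1h1t*, *Cyp21a1* and *Mc2r* were named after their values were seen.

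Coding sequences came from GENCODE vM21, which held 99.8% of the table's genes, 98.3% of these with the same start and end. They were compared by Biopython 1.88 in Python 3.11.15 in place of a protein comparison, for which no table was used here. Promoters came from RefSeq, and those of *Cyp11a1* were left out because their starts lay elsewhere than in the table. Figures were drawn with matplotlib 3.10.9. Both groups carry replicate numbers 1 to 4, and the paper states that littermates served as controls. The correlation of deviations between libraries with the same number was 0.0757 to 0.406, with 1 of 4 under 0.1. Of the controls, 3 of 4 correlated best with the cKO library of their own number. With no label that ties a number to a litter, no pairing was assumed in the main fit. Libraries of a group were compared for duplicates, and the smallest chi-square per gene between 2 of them was 4.81, above sampling noise.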

Additional observations from a re-analysis of the deposited data

Results flagged for a closer look

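A value was listed here when, in a group of 4 libraries, its gap to the nearest other library exceeded Dixon's 95% critical share of the group's range. Of 34 groups examined, 20 of genes and 14 of ratios, 7 met this. The rule was applied to FPKM and ratios as they stand, not to their log2 values. A rate of 1 in 20, or 1.7 groups, holds for normally distributed values only. That distribution was not tested on this scale, so the count of 7 is not set against 1.7. Among the genes, control 4 stood apart in *Hsd3b1* at 23.2 FPKM and in *Lhcgr* at 4.64 FPKM, control 1 in *Insl3* at 1.71 FPKM, from 14 fragments, and cKO 1 in *Scarb1* at 16.2 FPKM, below the other cKO libraries. Among the ratios, cKO 4 stood apart in *Srd5a1* to *Hsd17b3* at 1.66, cKO 3 in *Star* to *Cyp11a1* at 8.45, and control 1 in *Insl3* to *Cyp11a1* at 2.25. The genes and ratios share libraries, so these are not 7 independent events.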

How the results depend on the processing

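Over 19 alternatives, 0 of the 10 genes reached an adjusted p below 0.05, and the median log2 fold change stayed above 0, from 0.22 without control 1 to 0.48 without control 4. The count of genes at an unadjusted limma p below 0.05, 4 of 7, was 2 with all biotypes above 0.1 FPKM, 2 with no filter, 2 above 5 FPKM (where 3 of the genes could be tested), 2 after median centring, 2 as TPM, and 0 (without control 3, and without cKO 4) to 4 with 1 library left out. The cause was not tested. The replicate block gave 5, 4 higher and *Hsd17b3* lower, where 14.6% of all genes passed against 10.9% without it. *Hsd3b1* and *Lhcgr* then had limma adjusted p-values of 0.121 and 0.137, and the block changed no adjusted call. Array weights gave 5, all higher, where 20.9% of all genes passed. Of the controls, 3 of 4 correlated best with the cKO library of their own number. *Cyp11a1* kept an unadjusted limma p below 0.05 in all 17 of its alternatives, with adjusted p from 0.181 to 0.747. Genes and ratios near 0 changed sign: *Srd5a1* was -0.010 without control 3, -0.049 without cKO 2 and -0.050 without cKO 3, and *Insl3* was -0.085 without control 2 (over single omissions, -0.050 to 0.15 and -0.085 to 1.00). The ratio *Cyp17a1* to *Cyp11a1* was 0.19 without control 1 and 0.05 without cKO 1 (-0.21 to 0.19 over single omissions), and *Insl3* to *Cyp11a1* was 0.59 without control 1 and 0.45 without cKO 3 (-0.83 to 0.59). *Star* to *Cyp11a1* ranged from -0.67 to -0.48, and its exact permutation p was below 0.05 in 4 of its 10 alternatives. Over single omissions *Hsd3b6* to *Hsd3b1* ranged from -0.29 to -0.03. Fragments were fewest for *Cyp17a1* and *Insl3*.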

Other observations

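Of the most abundant markers of the other cell types, 2 from each list, none reached a limma p below 0.05 after adjustment, while 7 of these 16 genes did so before it, 5 higher and 2 lower in cKO, beside 10.9% of all genes tested. In the interstitium, the macrophage genes *Mrc1* and *C1qa*, a lectin receptor and a complement subunit, had means of 6.75 ± 0.577 and 4.70 ± 2.05 FPKM in controls and of 8.01 ± 0.632 and 8.01 ± 1.66 FPKM in cKO (SD, n = 4 each). The endothelial genes *Cdh5* and *Egfl7* had log2 fold changes of 0.72 and 0.31, cKO minus control, with limma adjusted p-values of 0.413 and 0.558. *Acta2*, the smooth muscle actin of peritubular myoid cells, was at 49.5 ± 10.3 FPKM in controls and 72.8 ± 11.2 FPKM in cKO, without overlap (log2 fold change 0.57, limma adjusted p = 0.287), while *Myh11*, the myosin of the same cells, had a log2 fold change of 0.15 (limma adjusted p = 0.838). The globin genes *Hbb-bs* and *Hba-a1* had 0.87 and 0.89 (limma adjusted p = 0.437 and 0.506).

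In the tubules, the Sertoli genes *Aard* and *Cldn11* had log2 fold changes of -0.02 and 0.13 (limma adjusted p = 0.980 and 0.823). The spermatocyte genes *Ldhc* and *Hspa2* had -0.73 and -0.30 (limma adjusted p = 0.287 and 0.664), and the spermatogonial genes *Uchl1* and *Dmrt1* had 0.35 and 0.15 (limma adjusted p = 0.487 and 0.699). Of the adrenal list, *Akr1b7* was at 3.08 ± 0.564 FPKM in controls and 2.65 ± 0.534 FPKM in cKO, and *Cyp11b2*, the aldosterone synthase gene, was at 0.825 ± 0.168 FPKM in controls and 0.439 ± 0.0818 FPKM in cKO, without overlap (log2 fold change -0.77, limma adjusted p = 0.392).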
